A study of Homo sapiens with 6 samples.

Results

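The genes described here are 5 of the 770 measured by hybridization on the nCounter PanCancer Progression Panel, where each captured RNA molecule is read as a fluorescent barcode and counted. They encode 3 matrix-degrading enzymes, namely urokinase (PLAU), heparanase (HPSE) and stromelysin-2 (MMP10), and 2 secreted inhibitors, TIMP2 and TFPI2. They were chosen from measured values of the same comparison of culture densities that is described below, so their levels are given as a description, with no test. The study asked how the density at which ovarian cancer cells grow relates to tumor progression genes, including those of the extracellular matrix. The cells were NIH:OVCAR-3, an established human line of high-grade serous ovarian cancer. All samples had the same line and the same RPMI medium with 20% fetal bovine serum, glucose, HEPES, sodium pyruvate and insulin, and 100 ng of RNA was loaded for each. Cells had been kept for 1 week at low density (3 samples) or at high density (3 samples), and no other treatment was given in the labels.

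Urokinase is a secreted serine protease that cleaves plasminogen to plasmin, which degrades fibrin and other matrix proteins and can activate metalloproteinases. Heparanase cuts the heparan sulfate chains of proteoglycans and so frees growth factors held in the matrix, while MMP10 degrades several matrix proteins and activates other secreted metalloproteinases. TIMP2 blocks metalloproteinases and also takes part in the activation of MMP2 at the cell surface, whereas TFPI2 is a Kunitz-type inhibitor of serine proteases such as plasmin and is deposited in the matrix.

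The deposited values were barcode counts that had been scaled by a factor for each sample, and are called normalized counts below. Recovered counts totaled 554859 to 696309 per sample, and the negative control probes averaged 6 to 10 counts. A background limit, set 2 SD above the negative control mean, lay between 12.3 and 18.1 normalized counts in the 6 samples. The counts of low density replicates 1 and 2 did not differ beyond the sampling noise (chi-square per gene 1.05 over 770 genes, p = 0.182), while the other pairs of one density differed by more (1.28 to 1.72, p of 1.41e-07 or less). For the more abundant genes alone (146 genes, mean count of 1000 or more) the same pair differed slightly, at 1.24 per gene with a chi-square p of 0.026. On the result over all genes, the pair was counted as 1 sample, by its mean, in every mean, SD and fit. This gave n = 2 at low and n = 3 at high density. The choice was made from the data, and that result does not show that the pair was 1 sample. The sources used here do not say whether the samples of a density came from separate cultures. The p-values thus cover just the spread among these libraries, and that spread may be technical. The limma fit returned infinite prior degrees of freedom. Each of its SEs and p-values therefore came from the spread shared by genes of like level, and a gene's own spread did not enter. In a bulk lysate, fewer cells that express a gene and less of its RNA per cell cannot be told apart.

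The label of the line was set against epithelial markers, of which 8 of 10 were on the panel. All 8 lay above the background limit in every sample. In the limma fit 7 of the 8 were lower at low density, and EPCAM did not pass (log2 difference -0.03, adjusted p = 0.523). The summed level of the 8 ran from 18452 to 19129 normalized counts at low and from 24652 to 25285 at high density. Of 11 fibroblast markers measured, COL1A1, FBLN1 and FBLN5 were above the limit in all 6 samples. FAP was above it only in the 3 high density samples (mean 19.8 against 8.89 at low density, not tested), and THY1 in 1. COL1A2, COL3A1, DCN, LUM, PDGFRB and POSTN were above the limit in no sample. The summed fibroblast level, 538 to 609 at low and 483 to 510 at high density, came mostly from FBLN1 and FBLN5. In the limma fit, COL1A1 (35.9 against 23.6, adjusted p = 0.0141) and FBLN1 (333 against 255, adjusted p = 4.23e-05) were higher at low density. Endothelial markers summed to 149 to 176 at low and 176 to 198 at high density (7 of 11 measured), and leukocyte markers to 79.7 to 101 and 90.2 to 116 (6 of 11 measured). The part of these marker levels in the results below was not tested.

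Of the 5 genes, 4 had promoter entries in the RefSeq table of GRCh38.p14, with 7 windows in all, and TIMP2 was not matched. The 250 bases before the transcript start were searched on both strands for 6 short motifs. These were the AP-1 element TGANTCA, the ETS core GGAAG, the GC box GGGCGG, the TATA box TATAAA, the E-box CACGTG, and the TEAD element CATTCC. MMP10 and TFPI2 each held 1 AP-1 element, the same TGAATCA in both, at 67 to 61 bases before the start in MMP10 and at 87 to 81 in TFPI2. AP-1 is the Jun and Fos family of transcription factors. The 2 PLAU and 3 HPSE windows held no match to that motif. MMP10 and TFPI2 are shown for the shared element, and PLAU as a gene of the same direction of change without it. Capitals mark the AP-1 element in MMP10 and TFPI2 and the GC boxes in PLAU, of which the second of its windows is given.
MMP10, chr11:102780629-102780878, minus strand: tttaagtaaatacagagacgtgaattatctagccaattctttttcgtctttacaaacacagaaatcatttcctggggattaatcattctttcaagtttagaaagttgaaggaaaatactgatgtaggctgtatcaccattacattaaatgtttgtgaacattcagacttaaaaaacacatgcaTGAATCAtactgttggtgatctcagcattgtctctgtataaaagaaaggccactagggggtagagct
TFPI2, chr7:93890754-93891003, minus strand: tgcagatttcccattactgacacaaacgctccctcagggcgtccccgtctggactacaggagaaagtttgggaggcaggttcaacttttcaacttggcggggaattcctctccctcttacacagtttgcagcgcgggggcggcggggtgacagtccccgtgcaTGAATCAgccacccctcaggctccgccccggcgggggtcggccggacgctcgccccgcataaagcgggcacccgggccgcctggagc
PLAU, chr10:73910882-73911131, plus strand: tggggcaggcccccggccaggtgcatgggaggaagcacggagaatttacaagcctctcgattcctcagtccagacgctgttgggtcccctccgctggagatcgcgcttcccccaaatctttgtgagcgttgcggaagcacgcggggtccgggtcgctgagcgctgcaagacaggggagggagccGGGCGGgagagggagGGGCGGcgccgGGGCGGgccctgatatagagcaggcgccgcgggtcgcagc
The AP-1 letters occurred in 6.57% of all 35116 promoter windows of that length, and the GC box in 42.6%. MMP10 also held a TATA box at 31 to 26 bases before its start, which 10.7% of windows do. TFPI2 held 2 GC boxes, at 114 to 109 and, on the opposite strand, at 65 to 60, and PLAU held 3 in the window shown. In HPSE, 2 overlapping windows held the same 2 GC boxes, and the other window held an E-box and TATA letters, which 6.34% and 10.7% of all windows contain. The ETS letters were in the PLAU window shown and in all 3 HPSE windows but in neither MMP10 nor TFPI2 (65.1% of windows), and the TEAD letters were in none of the 7 (11.9%). None of these matches overlapped the AP-1 element. A match describes the letters only, and a missing one says nothing of the factor.

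PLAU, the plasminogen activator, had 441, 441.1 and 504.4 normalized counts in low density replicates 1 to 3. At high density it had 113.6, 146.5 and 136.5. Each low density sample was at least 3.01 times each high density sample, and the groups were far apart. The means were 473 ± 44.8 (SD, n = 2) and 132 ± 16.9 (n = 3), a ratio of 3.58. The log2 difference was 1.84 ± 0.10 (SE from the limma fit), on the scale of log2(value + 1) used for all log2 differences. By the size of the rise at low density it was rank 3 of the 480 genes tested. Over the 3 libraries of a density, the coefficient of variation was 7.91% at low and 12.8% at high density. Counting error alone would give 4.5% and 9.09%. The spread was thus larger by value, but whether it exceeded counting error was not tested.

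HPSE, the heparan sulfate endoglycosidase, was 645, 667.9 and 655.7 at low density. It was 244.1, 226 and 256 at high density. All low density samples stood above all high density samples, at 2.52 to 2.96 times their level. Mean levels were 656 ± 0.573 and 242 ± 15.1, a ratio of 2.71 and a log2 difference of 1.44 ± 0.08. The small SD at low density is that of 2 values. Over the 3 low density libraries the coefficient of variation was 1.75%, below the 3.77% of counting error, so no spread beyond counting was detectable for HPSE at that density.

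MMP10, the stromelysin, was close to background at high density. Low density samples had 38.86, 41.97 and 37.57 normalized counts, and high density samples 17.93, 14.65 and 9.75. Every low density value lay above the background limit of its sample, by 2.43 to 3.06 times. At high density, replicate 1 alone passed its limit of 16.5, and replicates 2 and 3 lay under theirs, 18.1 and 12.5. The groups did not overlap, but the high density mean of 14.1 ± 4.12 was under the mean limit of that group, 15.7. By its means, MMP10 was therefore at least 2.48-fold higher at low density, where its mean was 39.0 ± 2.01. The closest samples differed by 2.1 times, and the fitted log2 difference of 1.44 ± 0.25 is no bound. MMP10 passed the filter on low values, a mean of at least 20, through the low density samples. Its spread at high density, 29.2%, was close to that of counting error, 28.6%, with raw counts of 18, 14 and 8.

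TIMP2, the metalloproteinase inhibitor, had 804.3, 823.3 and 879.2 normalized counts at low density. It had 226.2, 265.8 and 265.7 at high density. The groups did not overlap, and single samples differed by 3.03 to 3.89 times. The means of 847 ± 46.2 and 253 ± 22.9 gave a ratio of 3.35 and a log2 difference of 1.74 ± 0.08, the sixth in order of rise among the genes tested. TFPI2, the serine protease inhibitor, was 301.1, 274.1 and 299.6 in low density samples, against 182.3, 191.5 and 173.1. These groups were also separate, by a smaller margin: the closest samples differed by 1.43 times. TFPI2 had means of 294 ± 8.5 and 182 ± 9.21, a ratio of 1.61 and a log2 difference of 0.69 ± 0.10, at rank 55 of 480. Its coefficient of variation, 5.2% at low and 5.05% at high density, was within counting error of 5.66% and 7.73%.

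**Figure D1:**
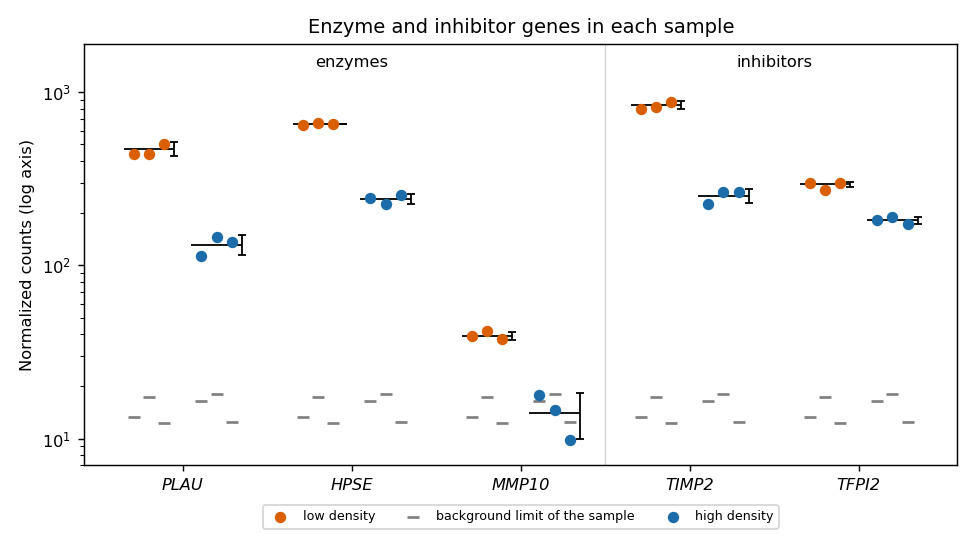
Normalized counts (log axis) of the 3 enzyme and 2 inhibitor genes in each sample, with low density in orange and high density in blue, black lines for the means, bars for the SD (n = 2 and n = 3) and grey dashes for the background limit of each sample. The low density points lie above the high density points for each gene, and the MMP10 points of high density replicates 2 and 3 lie under their limits.

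Both enzymes and inhibitors were thus at higher levels in the low density samples, with no overlap between densities for 5 of 5 genes. Across the 480 genes tested, low density samples lay wholly above high density samples for 186 (38.8%). In the limma fit, with p-values adjusted by the Benjamini-Hochberg method, 303 genes (63.1%) passed 0.05, of which 182 (37.9%) were higher and 121 (25.2%) lower at low density. The median log2 difference over all 480 was 0.05. Since the 5 genes were chosen from this comparison, nothing is read from their count against these shares. Scaling to the positive control probes in place of the reference genes moved the median to 0.19 and the split to 240 higher and 76 lower, while median-of-ratios scaling gave 154 and 151 and quantile normalization 137 and 134. Relative to the median of the fit, the differences of PLAU, HPSE, MMP10, TIMP2 and TFPI2 kept their direction under each of these scalings.

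**Figure D2:**
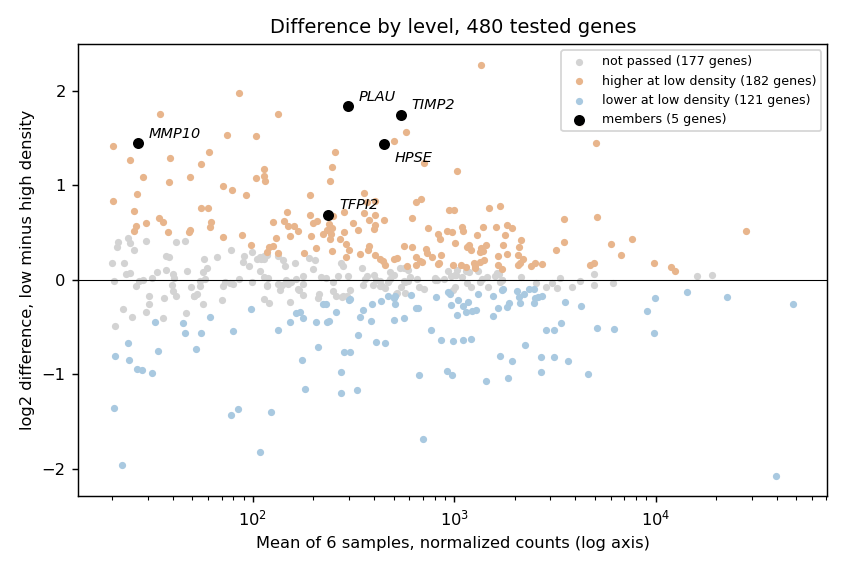
The log2 difference (low minus high density) of each of the 480 tested genes against its mean over the 6 samples in normalized counts (log axis), with the 5 genes in black and genes past the limma threshold in orange (182 higher) and blue (121 lower). TFPI2 lies lower than the other 4, at 0.69, and MMP10 lies near the low end of the axis of counts.

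The balance of enzyme to inhibitor was taken within each sample as the log2 ratio of their values, in which the scaling factor of a sample nearly cancels. Probes differ in efficiency, so the level of one gene was not set against that of another, and only the change of a ratio between densities was read. By the roles given above, only MMP10 with TIMP2 joins a metalloproteinase to a metalloproteinase inhibitor. TFPI2 inhibits serine proteases, the class of urokinase, but the target named above is plasmin. Neither inhibitor was given as one of heparanase, nor TIMP2 as one of urokinase. Most of the ratios thus compare RNA levels and are no balance of an enzyme with its own inhibitor. The ratios are of RNA, and enzyme activity was not measured. The PLAU over TIMP2 log2 ratio was -0.87, -0.90 and -0.80 at low density. At high density it was -0.99, -0.86 and -0.96. The groups overlapped and the mean differed by 0.09, so urokinase and TIMP2 changed by nearly the same factor. For PLAU over TFPI2, the low density ratios were 0.55, 0.68 and 0.75, against -0.68, -0.38 and -0.34. These groups were apart, and the mean difference of 1.15 was a 2.22-fold higher urokinase to TFPI2 ratio at low density.

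The HPSE over TIMP2 log2 ratio ran the other way, with -0.32, -0.30 and -0.42 in the low density samples against 0.11, -0.23 and -0.05. The mean was 0.31 lower at low density (difference -0.31), a ratio 0.808 of that at high density, and the nearest samples of the groups were close together. Without high density replicate 1 the difference was -0.22, and without replicate 2 it was -0.39. The HPSE over TFPI2 ratio was higher at low density, with 1.10, 1.28 and 1.13 against 0.42, 0.24 and 0.56, a difference of 0.75 or 1.68-fold. TFPI2, the inhibitor with the smaller change, thus had a higher ratio of enzyme to inhibitor at low density with each of the 3 enzymes. Against TIMP2, none of the 3 ratios was higher at low density without overlap of the groups.

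MMP10 ratios rested on values at or near background at high density. The MMP10 over TIMP2 log2 ratio was -4.34, -4.26 and -4.51 at low and -3.58, -4.09 and -4.63 at high density, and the groups overlapped. Its difference of -0.30 became -0.51 with each high density MMP10 value under the limit of its sample set to that limit. The difference turned to 0.72 when the negative control mean was subtracted. The MMP10 over TFPI2 ratio was -2.92, -2.68 and -2.96 at low and -3.28, -3.62 and -4.02 at high density, with no overlap. Its difference was 0.76, or 0.55 with MMP10 at the limit, 0.38 with a pseudocount of 10 and 1.79 after subtraction of the negative control mean.

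The mean of the enzymes over the mean of the inhibitors, both in log2, was -1.13, -1.03 and -1.14 at low density. It was -1.33, -1.49 and -1.57 at high density. The groups did not overlap, and the difference of 0.36 (0.29 with MMP10 at the limit) stood beside a pooled SD of 0.102. Without MMP10 the values were 0.12, 0.19 and 0.16 at low and -0.28, -0.31 and -0.20 at high density, a difference of 0.42, or 1.34-fold. That version leaves out the metalloproteinase, and so the pair of MMP10 with TIMP2. PLAU, HPSE and TIMP2 differed between densities by ratios of 2.71 to 3.58, and TFPI2 by 1.61.

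**Figure D3:**
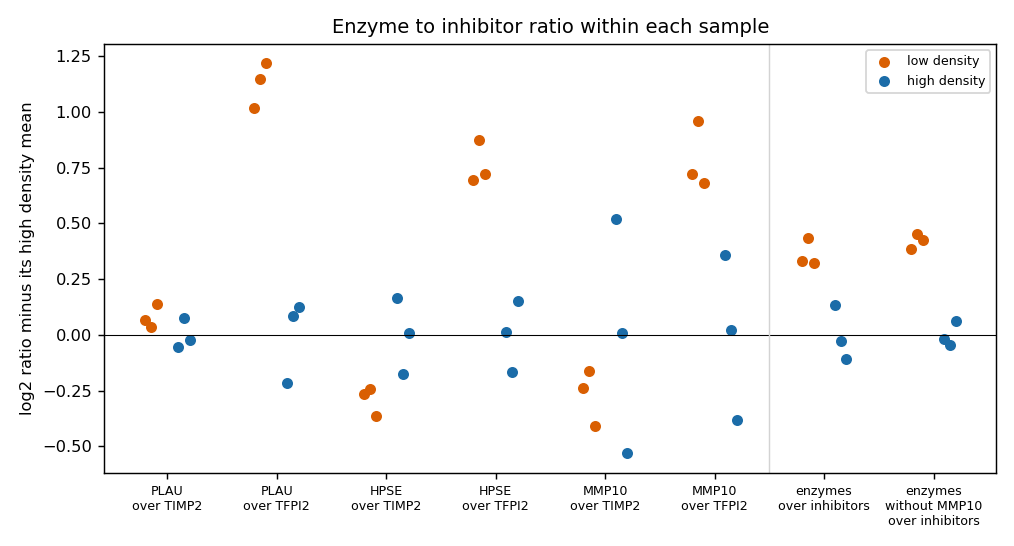
Log2 ratio of each enzyme to each inhibitor in each sample, drawn relative to its high density mean, with low density in orange and high density in blue. The ratios to TFPI2 are higher at low density by 0.75 to 1.15, while those to TIMP2 lie between -0.31 and 0.09, and the combined ratio without MMP10 is 0.42 higher.

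The patterns of the 5 genes over the 6 samples were set against each other as a Euclidean distance between log2 values centred on each gene's mean. PLAU and TIMP2 were the nearest pair (0.15), and PLAU and TFPI2 the farthest (1.41). Such distances largely follow the log2 differences between densities, which were 1.84 for PLAU, 1.74 for TIMP2 and 0.69 for TFPI2. They are thus no separate result. Among the other tested genes, ITGB3 (distance 0.22), the integrin beta-3 subunit, was nearest to PLAU and to TIMP2. PLEKHO1 followed, at 0.28 and 0.22, and ID1, an inhibitor of basic helix-loop-helix factors, at 0.37 and 0.26. The median distance of all tested genes from PLAU was 2.18 and from TIMP2 2.08. The ITGB3 mean was 54.6 at low and 15.5 at high density, the latter under the background limit of 15.7. Nearest to HPSE were PTTG1 (0.12), which encodes securin, ID2 (0.17) and the laminin chain LAMA1 (0.24). MMP10 had HEG1 (0.45), FXYD6 (0.47) and FGF2 (0.59), a growth factor that binds heparan sulfate, as its nearest genes, an order that rests in part on MMP10 values under the background limit. TFPI2 had the integrin subunit ITGA3 (0.09), the type IV collagen chain COL4A2 (0.10) and the spliceosome gene SNRPF (0.12).

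Genes of related families were taken from 9 lists written from general knowledge, and not all of them are known to act with the 5. Beside the 5, 42 were on the panel and 27 were tested, and 8 of these rose (29.6%, against 37.9% of all genes tested) while 8 fell (29.6%, against 25.2%) and 11 missed the threshold, with a median log2 difference of 0.04 beside 0.05 for all genes tested. Nothing particular to these list genes is read from shares so near those of the panel. Without low density replicate 1, 5 of them rose and 7 fell. Without low density replicate 3, the pair counted as 1 sample stood alone at low density, so no count is given for that fit. PLAUR and MMP2 did not reach the filter, and so had no test, when any one low density sample was left out.

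PLAUR, the cell surface receptor of urokinase, rose (adjusted p = 0.0031 by limma with Benjamini-Hochberg adjustment). Its low density samples had 26.23, 23.22 and 28.18 normalized counts, against 13.95, 12.56 and 17.06. The high density mean of 14.5 lay under the limit, so the means differed by at least 1.68-fold. The closest samples, 23.22 at low and 17.06 at high density, were nearer than that. Like MMP10, PLAUR passed the filter on low values through the low density samples, so its test is conditioned on the group where it was high. With no filter its adjusted p was 0.0133. ENO1, which can bind plasminogen at the cell surface, did not pass, at 16231 ± 311 and 15786 ± 551, but was called higher under positive control scaling (0.18, adjusted p = 5.29e-05) and quantile normalization (0.17, adjusted p = 5.03e-11). PLAT, PLG and SERPINB2 were not analysed here. F3, tissue factor, whose complex with factor VII is a target of TFPI2, rose from 130 ± 17.5 to 179 ± 21.6 (adjusted p = 0.000194, and 0.064 without low density replicate 3).

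Of the metalloproteinases beside MMP10, 2 of 9 measured passed the filter. MMP2, the gelatinase that TIMP2 helps to activate, rose from 10.4 ± 1.89 to 29.3 ± 2.92 normalized counts (adjusted p = 1.09e-06). With its high density mean under the limit, the means differed by at least 1.86-fold. MMP2 too passed the filter through the low density samples (adjusted p = 3.2e-05 with no filter). MMP24 did not pass (21.6 ± 2.65 and 19.2 ± 3.97). MMP14, the membrane enzyme that works with TIMP2 on pro-MMP2, averaged 23.2 at low and 11.5 at high density and was not tested, as were MMP3 (11.2 and 16.4) and MMP9 (15.3 and 9.24). TIMP1, the related inhibitor, rose from 163 ± 21.9 to 224 ± 2.92, a log2 difference of 0.47 ± 0.11 (adjusted p = 2.98e-05) that was smaller than those of TIMP2 and TFPI2 by value. TIMP3 and RECK were not analysed here.

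Among serine protease inhibitors beside TFPI2, SERPINA1, which encodes alpha-1 antitrypsin, fell from 257 ± 17 to 157 ± 25.6 (log2 difference -0.71), and SPINT1, SLPI and SERPING1 did not pass. Under median-of-ratios scaling SPINT1 (-0.15, adjusted p = 0.00387) and SLPI (-0.13, adjusted p = 0.00435) were called lower, as they were under quantile normalization. Of 5 other serine proteases tested, TMPRSS2 fell from 115 ± 4.81 to 42.2 ± 2.82 (-1.43 ± 0.15), and PRSS22 (-0.56) and PRSS8 (-0.20) also fell. ST14, the matriptase gene, rose by 0.13, and TMPRSS4 did not pass. The cathepsin gene CTSL rose by 0.13, and CTSH and CTSK did not pass. Adjusted p-values were 8.79e-12 for SERPINA1 and 1.69e-19 for TMPRSS2, while PRSS22, PRSS8, ST14 and CTSL ranged from 0.00477 to 0.032. PRSS8, ST14 and CTSL lost the call under at least 1 other scaling. PRSS22 lost it without low density replicate 3, where the pair counted as 1 sample stood alone at low density.

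Of the heparan sulfate proteoglycans, on which heparanase acts, AGRN (agrin) rose by 0.22 and SDC4 (syndecan-4) and COL18A1 fell, by 0.17 and 0.10 on the log2 scale. HSPG2 (perlecan) and the sulfatase SULF1 did not pass. COL18A1 had an adjusted p of 0.0432 and turned to 0.04 (adjusted p = 0.485) under positive control scaling. SDC4 lost the call under positive control scaling (-0.03, adjusted p = 0.676) and quantile normalization (-0.02, adjusted p = 0.377). SDC1 was not analysed here.

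Of the transcription factors of the AP-1 and ETS families, 4 were tested. JUN fell from 902 ± 34.1 to 624 ± 11.9 normalized counts (-0.53 ± 0.06, adjusted p = 5.73e-18). ETV4 rose from 34.7 ± 3.2 to 140 ± 17.8 (1.98 ± 0.17), and ELF3 fell from 3450 ± 84.9 to 1957 ± 12.1 (-0.82 ± 0.04). Adjusted p-values were 7.83e-30 for ETV4 and 1.33e-72 for ELF3. ELK3 did not pass.

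**Figure D4:**
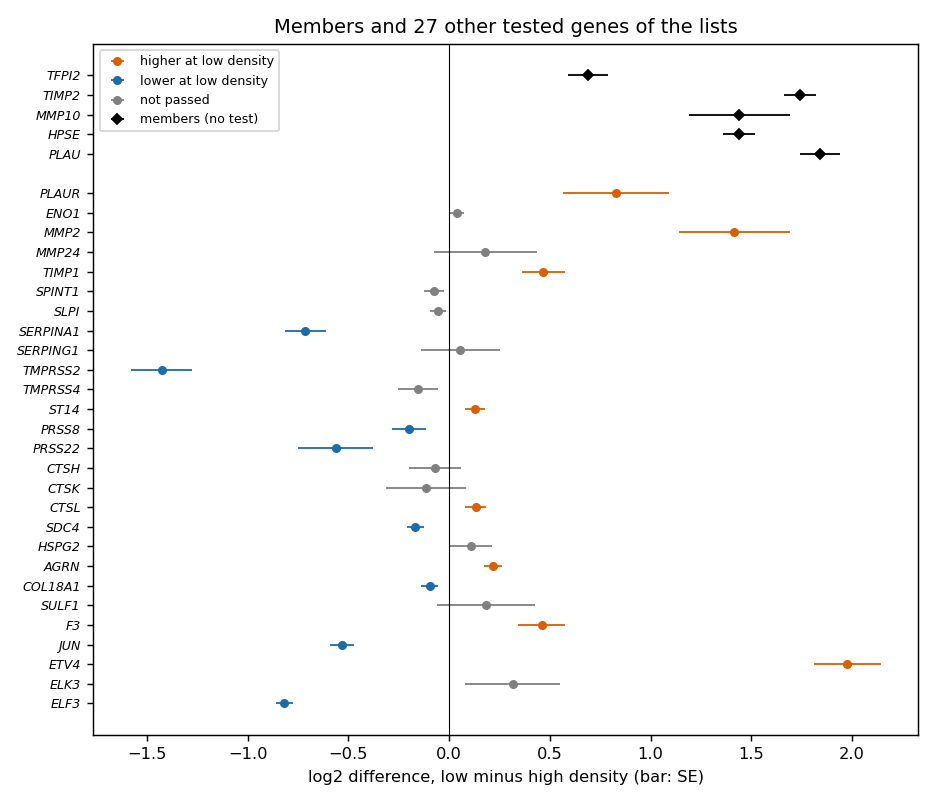
Log2 difference (low minus high density) with its SE for the 5 genes (black diamonds, no test) and for the 27 other tested genes of the lists, in orange where higher (8), blue where lower (8) and grey where not past the threshold (11). The 5 genes lie between 0.69 and 1.84, and ETV4 (1.98) and MMP2 (1.42) are the list genes above 1.

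**Figure D5:**
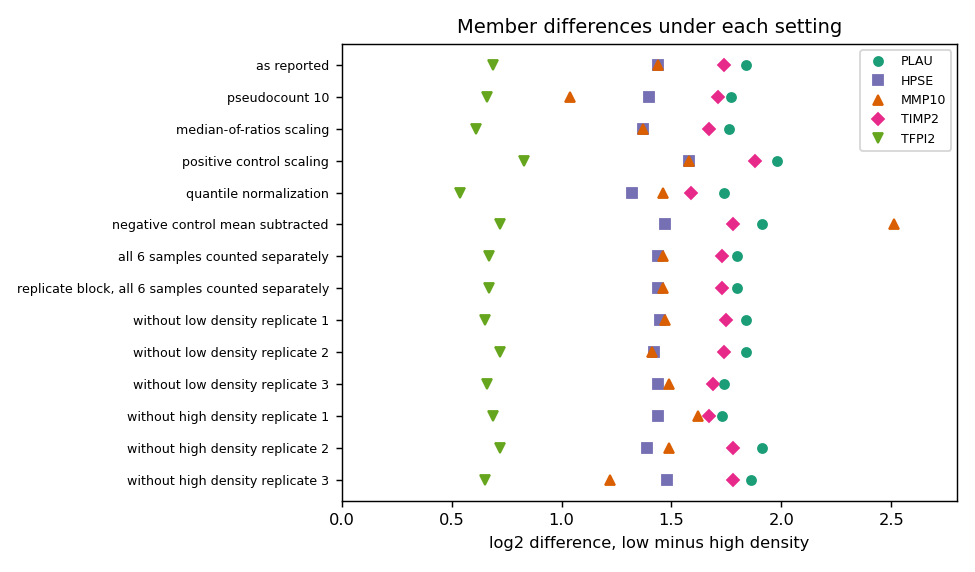
Log2 difference of each of the 5 genes (symbols) under the values as reported and 13 other settings (rows), including the leave-one-out fits. All differences are above 0, TFPI2 has the smallest in each setting (0.54 to 0.83), and MMP10 moves most, from 1.04 to 2.51.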

How the data were processed

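RNA of NIH:OVCAR-3 cells was read on the nCounter PanCancer Progression Panel (784 probes, of which 770 were genes, 30 of them reference genes, 8 negative and 6 positive controls). The authors deposited a signal per gene, that is, barcode counts scaled in each sample so as to equalize the reference genes (geometric mean 383.27 to 383.28 in every sample). The values alone show this scaling, and its software was not given in the sources used here. Controls were unscaled counts, with no background subtracted. Genes under 1 were listed at 1. Values over 1 and under 100 were whole multiples of one step per sample for 100% of genes (tolerance 0.1 count), and counts were recovered from that step.

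The 480 of 740 non-reference genes that averaged 20 or more across samples were fitted as log2(value + 1) with limma 3.58.1 under R 4.3.3 (density only, mean trend, two-sided), with Benjamini-Hochberg adjustment over the 480 and a threshold of 0.05. The design named all 6 samples. Low density replicates 1 and 2, which did not differ beyond the sampling noise over all genes, were averaged and counted as 1 sample, and the fit with all 6 separate is an alternative (318 genes called). The edgeR 4.0.16 quasi-likelihood test on recovered counts called 318 genes and DESeq2 1.42.0 called 247. The fit was checked on simulated data. The fold change of weakly detected genes is understated by the pseudocount. Where a high density mean lay under the background limit, the low density mean over that limit was given as a lower bound of the ratio of means.

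Named genes were the 5 genes, up to 3 rises and 3 falls per list and known direct partners. The members and lists were chosen with earlier results of these data known. Promoter sequences and symbols came from RefSeq (GRCh38.p14). A medium density named in the culture protocol was not analysed here.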

Additional observations from a re-analysis of the deposited data

How the results depend on the processing

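The difference of each of the 5 genes stayed above 0 under the 13 alternatives run for them. Positive control scaling gave 1.58 for HPSE, 1.88 for TIMP2 and 0.83 for TFPI2, and quantile normalization gave 1.32, 1.59 and 0.54 (log2). Median-of-ratios scaling gave 0.61 for TFPI2. MMP10 was 1.04 with a pseudocount of 10 and 2.51 after subtraction of the negative control mean. The same settings moved the enzyme over inhibitor balance to 0.22 and 0.71. DESeq2 called 121 genes higher, and positive control scaling left 76 genes lower. Of the list genes, 5 were lower under positive control scaling. Leaving out one sample other than low density replicate 3 gave 5 to 9 higher and 6 to 8 lower. COL18A1 turned to 0.04 under positive control scaling. With a mean of at least 50, MMP10 had no value. Without low density replicate 3, the pair counted as 1 sample stood alone at low density. Calls lost in that fit thus came with a smaller group and are not read as an effect of replicate 3. The cause of the other changes was not tested.

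Replicate numbers did not pair the samples: same-numbered samples deviated with correlations of 0.12, -0.11 and -0.03. With the replicate block and all 6 samples counted separately, chosen after seeing the data, 188 genes were higher and 132 lower, against 186 and 132 without it. The methods' t-test called 138 and 94. Leaving out one sample other than low density replicate 3 gave 282 to 302 genes. ST14, PRSS8, PRSS22, CTSL, SDC4, COL18A1 and F3 each lost the call under at least 1 alternative, while ENO1, SPINT1, SLPI, TMPRSS4, CTSH, HSPG2 and ELK3 each gained one. At high density, MMP10 had 8 to 18 raw counts, which limits its ratio.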
